A study of Mus musculus with 3 samples.

Results

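The retinoic acid receptor genes Rara, Rarb, Rarg, Rxra and Rxrb were followed through the differentiation of mouse female germ cells. They were chosen by name, and all 5 were found among the 14133 genes of the table. Droplet single-cell RNA sequencing had been run on primordial germ cells (the cells that give rise to oocytes) sorted as Oct4-EGFP-positive from fetal ovaries of C57BL/6 mice, on embryonic day 12.5 (E12.5), day 14.5 (E14.5) and day 16.5 (E16.5). The labels name no treatment and no allele other than this reporter of Pou5f1 (Oct4), which the cells of all 3 stages carry. Each stage was 1 library with no replicate, so stage and library cannot be told apart and no test between stages was possible.

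Retinoic acid, made from vitamin A, enters the nucleus and binds receptors of the RAR family (alpha, beta and gamma, from Rara, Rarb and Rarg). A RAR sits on DNA as a dimer with a receptor of the RXR family (here alpha and beta, from Rxra and Rxrb), and the pair represses a gene without ligand and activates it with ligand. In the fetal ovary, retinoic acid is known as an inducer of Stra8, a gene of meiotic entry, and the mesonephros beside the gonad is known as one of the sources of retinoic acid. RXR proteins also pair with other nuclear receptors, among them the PPAR, thyroid hormone and liver X receptors.

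The 5 genes lie on 5 chromosomes (GRCm38, GENCODE M21). Rara spans chr11:98927818-98974942 on the plus strand, Rarb chr14:16430839-16819156 on the minus strand and Rarg chr15:102234938-102257517 on the minus strand. Rxra spans chr2:27676440-27762957 and Rxrb chr17:34031812-34038399, both on the plus strand. The last 4624 bases of Rarb overlap the end of Top2b on the opposite strand. Whether the counting used strand is not given in the sources used here, so reads from these overlapping ends may not be told apart.

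Rarb is itself a classical target of the receptors, through a response element in its own promoter, and Stra8 is the gene of meiotic entry named above. The 250 bases before the RefSeq start of each are shown for that reason (RefSeq, GRCm38.p6; Rarb chr14:16575477-16575726, minus strand; Stra8 chr6:34920698-34920947, plus strand). Capitals mark each match to the receptor hexamer, searched on both strands as AGGTCA, or AGTTCA, or GGGTCA, or GGTTCA.
Rarb: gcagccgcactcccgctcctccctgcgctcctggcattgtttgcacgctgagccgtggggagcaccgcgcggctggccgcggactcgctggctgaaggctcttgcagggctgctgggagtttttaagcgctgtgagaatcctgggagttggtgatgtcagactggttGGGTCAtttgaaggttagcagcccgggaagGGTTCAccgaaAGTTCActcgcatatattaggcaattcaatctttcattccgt
Stra8: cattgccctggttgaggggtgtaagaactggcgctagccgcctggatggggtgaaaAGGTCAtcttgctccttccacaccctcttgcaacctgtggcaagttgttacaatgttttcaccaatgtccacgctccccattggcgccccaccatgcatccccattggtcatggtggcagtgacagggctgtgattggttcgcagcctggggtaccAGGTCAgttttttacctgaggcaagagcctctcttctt

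The RefSeq start of Rarb lies inside the gene as GENCODE draws it, 244 kb from its outermost start. Of 7 GENCODE transcripts, 5 start within 1 kb of the RefSeq start, 2 of them ahead of it, and the other 2 start far upstream. The Rarb window held 3 hexamers. Of these, 2 formed a direct repeat with 5 bases between them, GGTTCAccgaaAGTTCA, from 53 to 37 bases before the RefSeq start. Such a repeat (same orientation, 5 bases apart) was found in 29 of 32851 promoter windows of the same length (0.0883%). The Stra8 window held 2 separate hexamers and no direct repeat with 1, 2 or 5 bases between, and at least 2 hexamers were found in 9.75% of all windows. The windows of Rara, Rarg, Rxra and Rxrb held no direct repeat of these 3 spacings. A match of letters is a description and not a measured binding site.

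The table held 19144 cells. The libraries had 4706, 9075 and 5363 cells in time order and a median of 26691.5, 10960 and 12659 unique molecular identifiers (UMIs, each marking 1 captured RNA molecule) per cell. Of these cells, 18897 lay in germ-cell-like clusters (at least 98.2% of each library without called doublets) and 213 in a pregranulosa-like cluster, the somatic supporting cells of the ovary. Receptor levels are given in CPM (the UMIs of a gene per 1000000 UMIs) summed over the germ-cell-like cells of a library, with 95% intervals (exact Poisson for levels, exact binomial for shares and ratios) that cover counting error only. CPM is a share of the RNA captured, so it does not show molecules per cell. Only the 3' ends of transcripts were read, so the CPM scale does not grow with transcript length, and receptor isoforms were not separated. At E12.5, 14.2% of the germ-cell-like cells (666 of 4680) carried a UMI of a Y-linked gene although the cells are labelled female, and ratios without these cells are given where they bear on a result. Libraries shared 43 to 72 cell barcodes in pairs.

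Rara, which encodes RARα, had the highest CPM of the RAR genes at each stage, though at E12.5 its interval overlapped that of Rarg. It stood at 9.53 CPM at E12.5 (8.99 to 10.1; 1193 UMIs), 16.0 CPM at E14.5 (15.2 to 16.8; 1638 UMIs) and 3.70 CPM at E16.5 (3.26 to 4.18; 255 UMIs). The 3 intervals did not overlap, with E14.5 highest and E16.5 lowest. E14.5 was 1.68-fold above E12.5 (1.56 to 1.81), and E16.5 was 4.32-fold below E14.5 (3.78 to 4.95).

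Rarg, which encodes RARγ, was already lower at E14.5. Its level was 8.82 CPM at E12.5 (8.31 to 9.36; 1105 UMIs), 6.08 CPM at E14.5 (5.62 to 6.58; 624 UMIs) and 1.36 CPM at E16.5 (1.10 to 1.67; 94 UMIs). Each stage lay below the one before it, with no overlap of intervals. E16.5 was 4.46-fold below E14.5 (3.59 to 5.61) and 6.47-fold below E12.5 (5.24 to 8.08).

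Rarb, which encodes RARβ and whose window held the direct repeat shown above, was close to the limit of detection throughout. It had 127 UMIs at E12.5 (1.01 CPM, 0.85 to 1.21), 87 at E14.5 (0.85 CPM, 0.68 to 1.05) and 8 at E16.5 (0.116 CPM, 0.050 to 0.229). E12.5 and E14.5 overlapped, and E16.5 lay below both. Top2b, whose end overlaps that of Rarb, stood at 8.48, 77.7 and 48.5 CPM in time order, and its part in the Rarb counts was not tested. Stra8, the other gene shown above, stood at 3.28, 1458 and 274.3 CPM.

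Rxra, which encodes RXRα, differed less between stages. It stood at 3.13 CPM at E12.5 (2.83 to 3.46; 392 UMIs), 5.70 CPM at E14.5 (5.25 to 6.19; 585 UMIs) and 4.07 CPM at E16.5 (3.61 to 4.58; 281 UMIs). The highest level was again at E14.5 and the lowest at E12.5, and E14.5 was 1.82-fold above E12.5 (1.60 to 2.08).

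Rxrb, which encodes RXRβ, was the member of highest CPM at each stage. Its level was 34.3 CPM at E12.5 (33.3 to 35.4; 4301 UMIs), 34.1 CPM at E14.5 (33.0 to 35.2; 3494 UMIs) and 48.1 CPM at E16.5 (46.5 to 49.8; 3317 UMIs). The E12.5 and E14.5 intervals overlapped, and E16.5 was 1.41-fold above E14.5 (1.35 to 1.48). Among the 14133 genes, 73.6 to 78.6% had a lower CPM than Rxrb at the same stage, against 32.9 to 57.8% for Rara and 1.79 to 22.5% for Rarb.

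**Figure D1:**
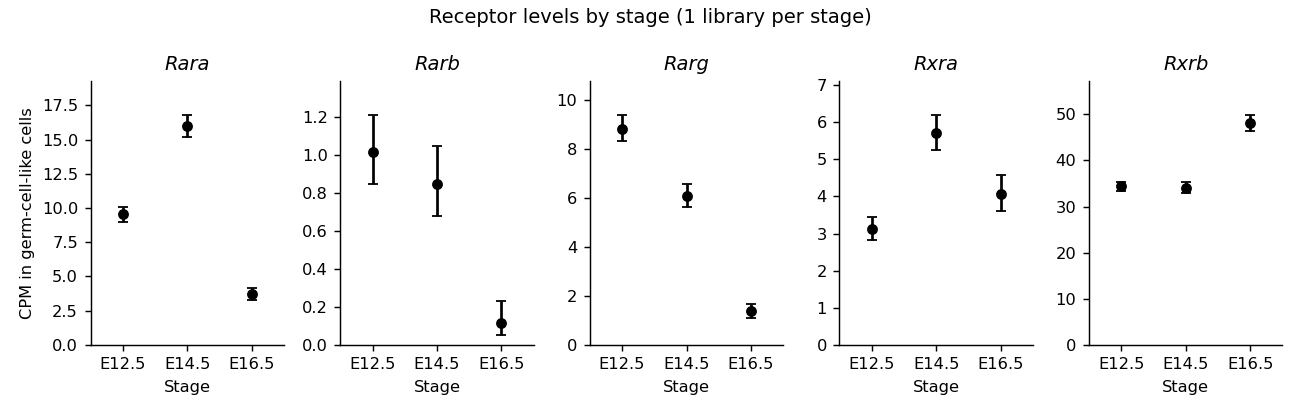
CPM of each receptor gene (vertical axes, each from 0 and with its own range) in the germ-cell-like cells of E12.5, E14.5 and E16.5, as points with exact Poisson 95% intervals, 1 library per stage. Rara and Rxra peak at E14.5 (16.0 and 5.70 CPM), Rarg and Rarb end lowest at E16.5, and Rxrb stands highest at E16.5 (48.1 CPM).

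Counted at a 2-fold threshold, 0 of 5 receptors were higher and 0 of 5 lower at E14.5 than at E12.5, where 31.3% of 14132 genes tested were higher and 16.4% lower. At E16.5 against E14.5, 3 of 5 were lower (Rara, Rarb and Rarg) and 0 of 5 higher, where 17.5% of genes were lower and 16.4% higher. At E16.5 against E12.5 the same 3 were lower and 0 of 5 higher, where 22.7% of genes were lower and 37% higher. The 3 lower genes are all RAR genes, and the 2 others are the RXR genes.

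The median gene was not at 0 on this scale. Its log2 ratio was 0.30 for E14.5 over E12.5, 0.06 for E16.5 over E14.5 and 0.39 for E16.5 over E12.5. Relative to that median, Rara had a log2 ratio of 0.44 for E14.5 over E12.5, Rxra 0.56, Rxrb -0.31, Rarb -0.56 and Rarg -0.84. For E16.5 over E14.5 the relative values were -2.17 for Rara, -2.22 for Rarg, -2.93 for Rarb, -0.54 for Rxra and 0.44 for Rxrb. For E16.5 over E12.5 the relative value of Rxra was -0.01, although its CPM was 1.30-fold higher (1.11 to 1.52), and that of Rxrb was 0.10.

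The makeup of the RAR family also differed between stages. Rara gave 49.2% of RAR UMIs at E12.5 (47.2 to 51.2%), 69.7% at E14.5 (67.8 to 71.6%) and 71.4% at E16.5 (66.4 to 76.1%), and Rarg gave 45.6, 26.6 and 26.3%. Both shares were alike at E14.5 and E16.5 within their intervals, and E12.5 stood apart. Within the RXR family, Rxrb gave 91.6, 85.7 and 92.2% of UMIs. Summed, the RAR genes stood at 19.4, 22.9 and 5.18 CPM and the RXR genes at 37.5, 39.8 and 52.2 CPM. RXR UMIs per RAR UMI were therefore 1.94 at E12.5 (1.84 to 2.03), 1.74 at E14.5 (1.65 to 1.83) and 10.1 at E16.5 (9.04 to 11.3), a ratio that no scaling of the libraries can alter.

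**Figure D2:**
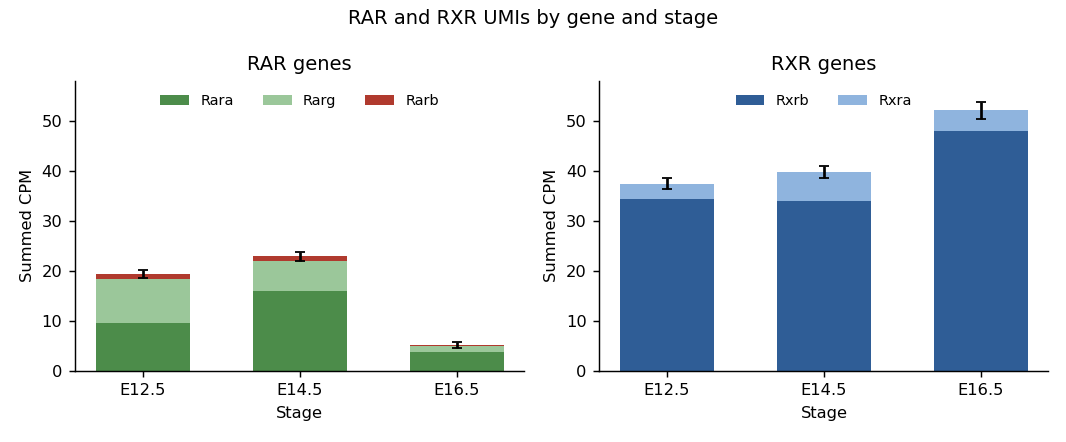
Summed CPM (vertical axis, from 0) of the RAR genes (left) and the RXR genes (right) in germ-cell-like cells at each stage, stacked by gene, with the exact Poisson 95% interval of the sum. The RAR sum is 5.18 CPM at E16.5, below the 19.4 and 22.9 CPM of the earlier stages, while the RXR sum is 52.2 CPM.

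Single cells held few receptor UMIs. A Rara UMI was found in 21.7% of E12.5 cells, 16.2% of E14.5 cells and 4.52% of E16.5 cells, shares that the different depths move. After each cell was thinned to 5000 UMIs, which left out 0, 11 and 25 shallower germ-cell-like cells, Rara was found in 4.64% (4.05 to 5.28%), 7.05% (6.53 to 7.60%) and 1.66% (1.34 to 2.05%). Rarg was found in 4.36, 2.496 and 0.624% of thinned cells, Rxra in 1.54, 2.69 and 1.89%, and Rxrb in 15.8, 15.5 and 21.1%. The thinned shares stood in the same order as the CPM for these 4 genes. At full depth the most UMIs of 1 gene in 1 cell were 9 for Rxrb and 4 for Rara.

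In thinned cells, at least 1 RAR gene was found in 9.27% of cells at E12.5, 9.51% at E14.5 and 2.35% at E16.5, and at least 1 RXR gene in 17.1, 17.7 and 22.6%. Both families were found together in 1.82% (1.45 to 2.24%), 1.65% (1.40 to 1.94%) and 0.605% (0.414 to 0.853%) of cells. The product of the 2 shares was 1.58, 1.69 and 0.529%, inside each of these intervals. Between 74.4 and 75.7% of thinned cells held no UMI of any of the 5 genes, which limits cells with a UMI and not cells that express a receptor.

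No cell type in the table is known to lack these receptors, so a background share could not be set. The pregranulosa-like cells gave the nearest comparison, with Rara at 27.7, 43.9 and 20.3 CPM (11, 69 and 6 UMIs) and Rxrb at 35.3, 37.5 and 27.1 CPM at the 3 stages. At E14.5 the thinned share with Rara was 17.5% in these 166 cells (12.02 to 24.1%; the median depth of the cluster over all stages was 8883 UMIs). The 18 pregranulosa markers measured summed to 10.6, 22.2 and 19.2 CPM in germ-cell-like cells in time order, which was 0.416, 0.589 and 0.716% of their level in pregranulosa-like cells. None of these markers was at 0 UMIs in germ-cell-like cells, and 16, 11 and 11 of the 18 were under 1 CPM. Stra8, a germ cell gene, had 278.0 CPM in the E14.5 pregranulosa-like cells, against 1458 CPM in the germ-cell-like cells, and the part of free RNA or doublets in either set was not tested.

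Within the E12.5 library, the cells that already held Stra8 RNA differed in receptor level from those without. The split used Stra8 UMIs alone, and the 213 cells with one had a median depth of 27259 UMIs against 26701 in the 4467 cells without. Rxra stood at 6.97 CPM in cells with a Stra8 UMI (40 UMIs) and at 2.95 CPM in cells without (352 UMIs), 2.37-fold higher (1.66 to 3.29). Rara stood at 14.6 CPM (84 UMIs) and 9.28 CPM (1109 UMIs) in the same order, 1.58-fold higher (1.25 to 1.97). Rarg was lower, at 5.75 CPM (33 UMIs) in cells with a Stra8 UMI and 8.97 CPM (1072 UMIs) in cells without, with a ratio of 0.641 (0.439 to 0.906).

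Rxrb did not differ beyond counting error between these sets, at 33.6 CPM in cells with a Stra8 UMI and 34.4 CPM in cells without (ratio 0.979, 0.843 to 1.13). Rarb had 5 UMIs in the cells with a Stra8 UMI, too few to place. Without the cells that carried a Y-linked UMI the ratios were 2.23 for Rxra (1.56 to 3.12), 1.62 for Rara (1.28 to 2.03) and 0.543 for Rarg (0.359 to 0.790). The ratios of E14.5 over E12.5 for the whole libraries, which share these E12.5 cells, were 1.82 for Rxra, 1.68 for Rara, 0.690 for Rarg and 0.992 for Rxrb on the CPM scale. With median-of-ratios factors these ratios were 1.45, 1.34, 0.549 and 0.790 in the same order. Cells with a Stra8 UMI also had more RNA of Rec8, a meiotic cohesin (29.99 against 7.62 CPM), and of Crabp2, a retinoic acid carrier (18.3 against 9.30 CPM), genes looked at after their values were seen. Genes outside the retinoid pathway were higher too, among them Dazl (813.0 against 438.1 CPM) and Id1 (183.1 against 120.5 CPM). Crabp1, another carrier, was 1.24-fold higher (1.11 to 1.38). Other genes looked at were lower, among them Pou5f1 (582.7 against 685.5 CPM).

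**Figure D3:**
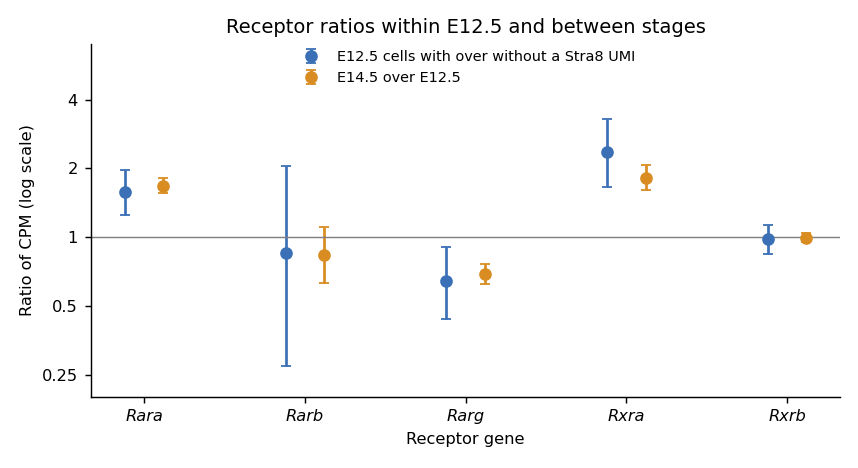
Ratio of CPM on a log scale for each receptor, for E12.5 germ-cell-like cells with over those without a Stra8 UMI (left point of each pair) and for E14.5 over E12.5 (right point), with exact 95% intervals of counting error. Within E12.5 the ratios are 1.58 for Rara, 2.37 for Rxra, 0.641 for Rarg and 0.979 for Rxrb, and the E14.5 over E12.5 ratios beside them share the E12.5 cells.

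The E12.5 cells with a Y-linked UMI had Rxra at 1.80 CPM, against 3.37 CPM in the cells without (ratio 0.534, 0.364 to 0.760). Rarg stood at 7.19 against 9.12 CPM (0.789, 0.654 to 0.945) and Rxrb at 40.3 against 33.3 CPM (1.21, 1.12 to 1.31). Rara was at 9.31 CPM in cells with a Y-linked UMI and 9.57 CPM in cells without, within counting error (0.973, 0.824 to 1.14). Stra8 stood at 0.687 against 3.74 CPM in the same sets.

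Within the E14.5 library, 3 clusters held over 2000 cells each, and all 5 receptors stood in the same order in them. Clusters were formed on the same counts, so these values are a description. Cluster 4, led by Cdh15, Cdx2 and Dlx3, had Rara at 24.4 CPM (22.7 to 26.1). Cluster 5, led by Msx1, Rec8 and Ccnd1, had 16.5 CPM (15.2 to 17.8), and cluster 6, led by Tppp, Fgf11 and Lypd4, had 6.48 CPM (5.57 to 7.49). Cluster 4 was 3.76-fold above cluster 6 for Rara (3.195 to 4.45), 6.14-fold for Rarg (9.23 against 1.503 CPM) and 3.99-fold for Rxra (8.86 against 2.22 CPM). A smaller cluster of 206 cells, cluster 7, had Rara at 7.34 CPM (3.66 to 13.1).

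Rxrb varied less over the same clusters, at 38.7, 33.3 and 29.5 CPM in clusters 4, 5 and 6. Stra8 did not follow the RAR order, with 948.7, 1959 and 1351 CPM. The retinoic acid carrier Crabp2 did, with 36.6, 28.2 and 5.65 CPM. The genes set beside the receptors here were chosen after their values were seen. Nr2c2, an orphan receptor that binds direct repeats of the same hexamer, stood in the opposite order (13.9, 21.1 and 39.6 CPM). Median depth per cell was 13261, 11450 and 9329 UMIs in these clusters, in the same order as Rara, and its part in the difference was not tested.

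Within the E16.5 library, cluster 8, led by Pcdh17 and Fbxo47 with Prdm9 among its first 10 genes, and cluster 9, led by Ablim1 and Myom3 among named genes, held most cells. Their median depth was 12613.5 UMIs in both. Rara was at 3.87 CPM in cluster 8 and 2.77 CPM in cluster 9 (ratio 1.40, 1.05 to 1.85), while Rxra was at 1.93 and 5.49 CPM (0.352, 0.253 to 0.481) and Rxrb at 38.9 and 55.5 CPM (0.701, 0.650 to 0.756). The Rara difference depended on the clustering. At a finer one (Leiden resolution 1), 278 E16.5 cells formed a cluster led by Hist1h2ap, with Rara at 9.63 CPM (6.94 to 13.0). The cluster led by Pcdh17 and Fbxo47 then stood at 3.23 CPM (2.54 to 4.05). Clusters of 1381 and 1575 E16.5 cells stood at 3.29 CPM (2.51 to 4.23) and 2.25 CPM (1.63 to 3.02), and the intervals of these large clusters overlapped. Rxrb in cluster 8 stood near the 38.7 CPM of cluster 4 at E14.5, and cluster 9 stood above it.

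A further 150 cells of the E16.5 library fell in clusters 4 and 5, which hold mainly E14.5 cells. In them Rara stood at 14.3 CPM, against 3.21 CPM in the 5004 E16.5 cells of clusters 8 and 9 (4.45-fold, 3.11 to 6.22). Rarg stood at 7.14 against 1.12 CPM (6.39-fold, 3.73 to 10.5). Rxra (5.78 against 4.07 CPM; 0.816 to 2.32 for the ratio) did not differ beyond counting error, and Rxrb was lower, at 39.8 against 48.8 CPM (0.815, 0.672 to 0.980). Clusters 6 and 7, also mainly of E14.5 cells, held 76 and 82 E16.5 cells. In these Rara stood at 3.31 and 4.32 CPM (3 UMIs each) and Rarg had 0 and 1 UMI, levels near those of clusters 8 and 9 but with wide intervals (up to 9.68 and 12.6 CPM for Rara). The 150 cells were deeper, with a median of 19625 against 12613.5 UMIs, and the part of depth was not tested.

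**Figure D4:**
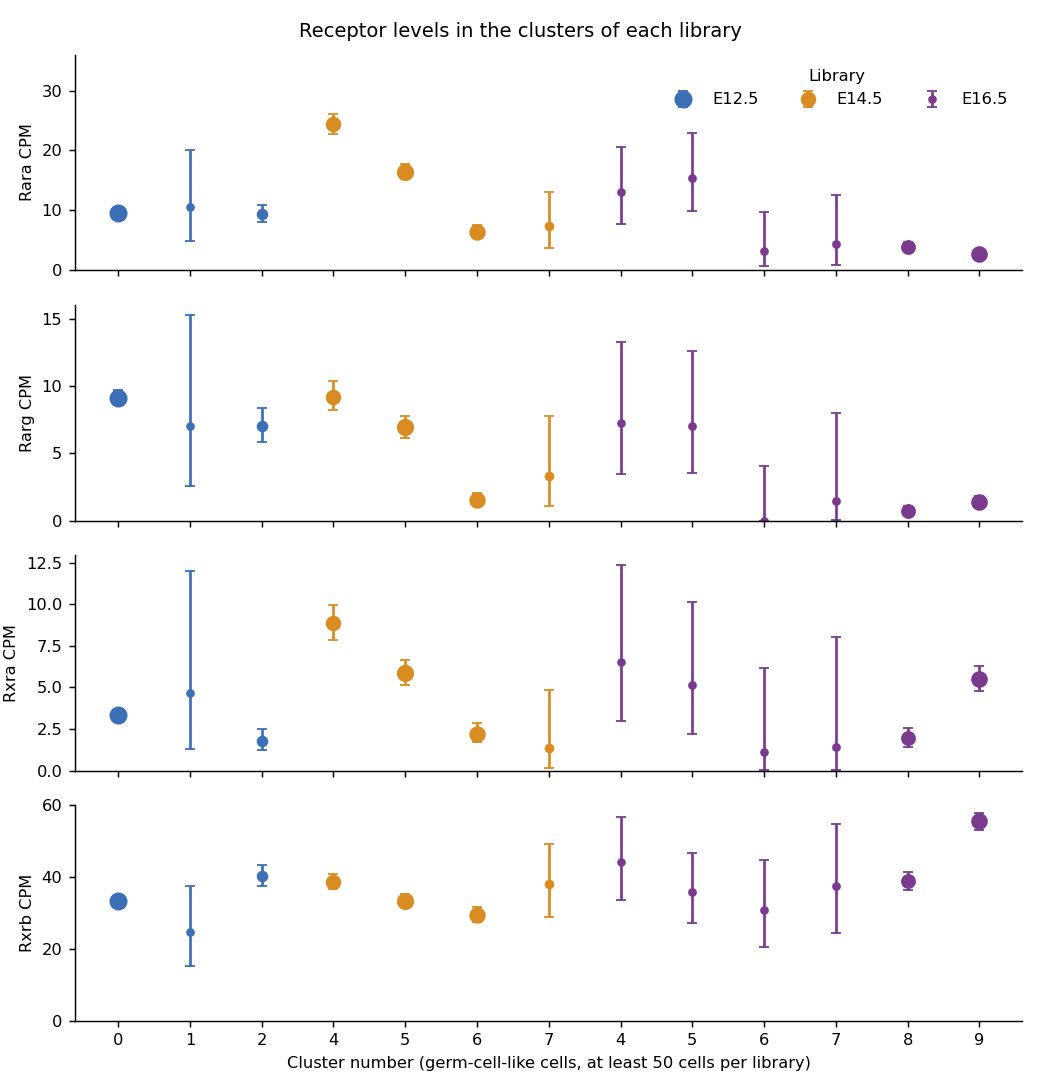
CPM (vertical axes, from 0) of Rara, Rarg, Rxra and Rxrb in each germ-cell-like cluster of at least 50 cells, by library (E12.5 left, E14.5 middle, E16.5 right), with exact Poisson 95% intervals; larger points stand for more cells. Rara runs at 24.4, 16.5 and 6.48 CPM over clusters 4, 5 and 6 of E14.5, and for Rara and Rarg the E16.5 cells of clusters 4 and 5 lie above those of clusters 8 and 9.

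The genes whose levels ran most like each receptor were sought over the 9 germ-cell-like clusters, by Pearson's r of log2(CPM + 1) among 8178 genes of at least 10 CPM at a stage. The clusters are mostly of 1 library each, so these values describe the libraries too. The genes named were picked for the highest r of all searched, so that choice by itself favours high values. Closest to Rara were Eci1 (r = 0.968), Hist1h3c (0.968) and Rnf208 (0.963), and closest to Rarg were Agfg2 (0.992), Mpzl1 (0.989) and Ubtf (0.987). Closest to Rxra were March2 (0.967), Aifm1 (0.952) and D1Ertd622e (0.948), and closest to Rxrb were Tmem33 (0.956), Prkab2 (0.952) and Ginm1 (0.951). Rarb, under 5 CPM at each stage, was not searched. Among the receptors, r was 0.852 for Rara with Rarg, 0.521 for Rara with Rxra and -0.428 for Rara with Rxrb.

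The other genes of the pathway were described from lists, at the same 2-fold threshold. Over all genes, 31.3% were higher and 16.4% lower at E14.5 than at E12.5 (median log2 ratio 0.30), and 16.4% were higher and 17.5% lower at E16.5 than at E14.5 (median 0.06), and each list's counts stand against these shares. Of the 7 uptake and binding genes measured, 2 were higher and 2 lower at E14.5 than at E12.5, and 1 was higher and 3 lower at E16.5 than at E14.5. Their median log2 ratios were 0.30 and -0.71. Crabp1, a cellular carrier of retinoic acid, stood at 47.9, 80.7 and 19.2 CPM in time order, highest at E14.5 like Rara, and Rbp4, the retinol carrier of plasma, at 1.57, 24.9 and 25.1 CPM.

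Of the 11 genes listed for retinoic acid synthesis, 5 were higher and 5 lower at E14.5 than at E12.5. At E16.5 against E14.5, 3 were higher and 2 lower. Over all genes the shares were 31.3 and 16.4%, then 16.4 and 17.5%. The median log2 ratios of the list were -0.92 and -0.21. With at least 100 UMIs required over the 3 sums, 3 were higher and 5 lower at E14.5 than at E12.5. The shares of all genes at that limit are not given here. The retinol dehydrogenase gene Rdh14 stood at 19.6, 47.7 and 89.3 CPM, and the dehydrogenase genes Adh5 and Dhrs4 at 206.9, 81.8 and 64.8 CPM and at 58.9, 14.3 and 1.33 CPM. The breakdown genes measured, Cyp26b1 and Cyp2s1, were both under 1.5 CPM at each stage. Cyp26b1, whose enzyme degrades retinoic acid and which is a gene of male supporting cells, stood at 0.152, 1.33 and 0.493 CPM.

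Corepressor and coactivator proteins silence or help the bound receptors. Of 9 corepressor genes, 1 was higher and 1 lower at E14.5 than at E12.5, and 0 were at least 2-fold apart between E16.5 and E14.5 (median log2 ratios -0.57 and 0.0045). With median-of-ratios or TMM factors, 0 were higher and 3 lower at E14.5 than at E12.5. The shares of all genes given here are on the CPM scale and not with these factors. Ncor1, the classical corepressor of unliganded receptors, stood at 108.9, 97.5 and 73.7 CPM, Gps2 at 39.4, 81.9 and 95.4 CPM, and Hdac3 at 66.2, 52.0 and 45.3 CPM. Nrip1, which represses liganded receptors, stood at 25.04, 7.17 and 5.68 CPM. Of 14 coactivator genes, 2 were higher and 2 lower at E14.5 than at E12.5, and 1 was higher and 1 lower at E16.5 than at E14.5 (medians 0.20 and -0.06). Over all genes the shares were 31.3% higher and 16.4% lower, and 16.4% higher and 17.5% lower. Ncoa1, a classical coactivator, stood at 3.43, 24.3 and 35.6 CPM, Prmt1, an arginine methyltransferase, at 720.7, 193.6 and 73.9 CPM, Kat2a at 86.9, 62.3 and 42.3 CPM and Med25 at 86.5, 54.5 and 29.1 CPM.

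Of 9 genes for receptors that share RXR as a partner, 6 were higher and 0 lower at E14.5 than at E12.5 (median log2 ratio 3.10, against 0.30 over all genes, of which 31.3% were higher), and 1 was higher and 1 lower at E16.5 than at E14.5 (median -0.32). Pparg, a fatty acid receptor, stood at 1.16, 16.8 and 15.4 CPM, and Thra, a thyroid hormone receptor, at 3.11, 10.6 and 6.95 CPM. The other genes counted as higher at E14.5 had only 2 to 23 UMIs at E12.5. The median log2 ratio of 3.10 is that of 1 of them, which stood at 0.0878 CPM at E12.5 and 0.751 CPM at E14.5. Nr1h2, a liver X receptor, was the highest of this list at 35.6, 24.9 and 16.4 CPM. Of the 8 orphan receptor genes, 3 were higher and 2 lower at E14.5 than at E12.5, and 2 were higher and 2 lower at E16.5 than at E14.5 (medians 0.48 and 0.15), counts near the 31.3 and 16.4% and the 16.4 and 17.5% of all genes. Nr6a1 stood at 43.4, 79.8 and 57.2 CPM, Nr2f6 at 65.7, 35.4 and 26.4 CPM, Nr2c2 at 9.41, 24.3 and 39.8 CPM, and Nr2f1 at 0.112, 4.98 and 14.04 CPM.

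**Figure D5:**
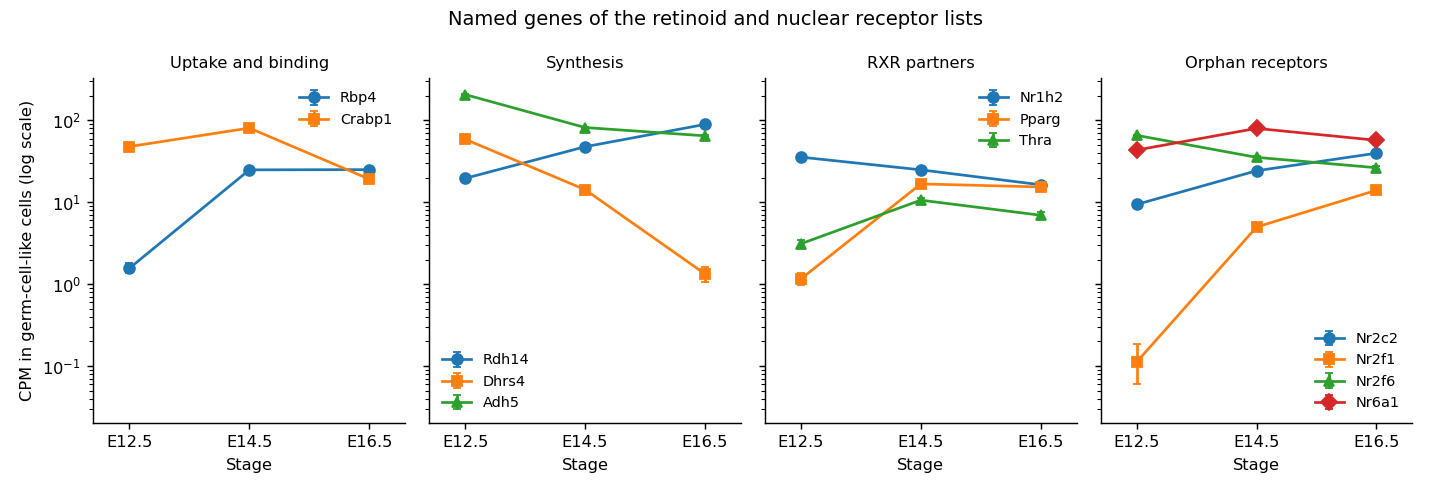
CPM on a log scale of genes of 4 lists named in the text at E12.5, E14.5 and E16.5, with exact Poisson 95% intervals and lines joining the stages. Dhrs4 ends at 1.33 CPM at E16.5, while Rdh14, Nr2c2 and Nr2f1 end at 89.3, 39.8 and 14.04 CPM.

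A list of 21 genes known as responsive to retinoic acid was taken without Rarb and with some genes named above (Nrip1, Nr2f1, Stra8 and Rec8 among them). Of these, 11 were higher and 5 lower at E14.5 than at E12.5, where 31.3% of all genes were higher and 16.4% lower. The median log2 ratio was 1.32, against 0.30 over all genes. Some of the genes counted as higher had only 0 to 54 UMIs at E12.5, and the others had 405 or more. Whether retinoic acid set these levels was not tested. At E16.5 against E14.5, 3 were higher and 10 lower (median -0.94, against 0.06 over all genes, of which 16.4% were higher and 17.5% lower). Rhox5 and Rhox6, homeobox genes of the X chromosome, stood at 1102, 434.8 and 43.6 CPM and at 701.1, 245.9 and 58.01 CPM. In a list of BMP pathway genes with Dazl, which helps germ cells to respond to meiotic signals, 6 of 15 were higher and 1 lower at E14.5 than at E12.5, and 1 was higher and 4 lower at E16.5 than at E14.5 (medians 0.66 and -0.49), where 31.3% and 16.4%, then 16.4% and 17.5%, of all genes did so. With median-of-ratios factors, 4 of the 15 were higher and 3 lower at E14.5 than at E12.5, and the shares of all genes with these factors are not given here. Dazl stood at 455.3, 1145 and 934.1 CPM, the BMP targets Id1 and Id3 at 123.3, 269.3 and 394.7 CPM and at 593.6, 571.8 and 219.2 CPM, and Msx2 at 65.3, 38.5 and 4.78 CPM.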

How the data were processed

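Per the labels' protocols, cells were captured on a 10x Genomics Chromium controller with the version 2 kit for 3' ends, and the submitters' processing notes name Cell Ranger 2.0.0, FastQC and build mm10. How cells or genes were filtered is not given in the sources used here. In the table that the authors deposited, each value is the natural log of 1 plus the UMIs of a gene per 10000 UMIs of its cell. Whole UMIs were recovered by undoing the log (100.0% of 68606039 non-zero values within 0.01 of a whole number). Doublets were called per library with Scrublet in scanpy 1.11.5 at an expected 6%, which marked 34 of 19144 cells, so that doublets may remain. Cells were clustered on 2000 variable genes, 30 principal components and 15 neighbours with Leiden at resolution 0.5. A cluster was named from marker lists: at least 3 markers in at least 10% of its cells, the largest share of a list, or more markers among its 10 leading genes. Clusters called germ-cell-like held 17 to 28 of the 30 markers for that type and at most 1 of 18 for pregranulosa cells. The pregranulosa-like cluster held 17 of 18 pregranulosa markers, 21 of the 30 germ cell markers and 4 of 4 surface epithelium markers. Its name rests on the 4 pregranulosa markers among its 10 leading genes.

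UMIs of germ-cell-like cells were summed per stage (125218915, 102551184 and 68968904 UMIs in time order) and given as CPM. Genes needed at least 10 UMIs over the 3 sums. No test was run between stages, each being 1 library, and cells did not serve as replicates. Genes were named by a fixed rule: in each list the 3 of highest CPM and the 1 that differed most between stages with 5 CPM or more, and for each receptor the 3 genes most like it over clusters of at least 50 cells. A gene that this rule names is not reported here by name, though the list counts hold it. Rec8, Crabp1, Crabp2, Dazl, Id1, Pou5f1 and Nr2c2 within libraries were named outside it. The members and lists were chosen with earlier results of these data known. Alternatives were other scalings, means over cells, all cells, thinning, other folds and clusterings, and E12.5 without Y-linked cells; leaving out small clusters was added after the data were seen. Code was tested on simulated data.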

Additional observations from a re-analysis of the deposited data

Results flagged for a closer look

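Rara was at 43.9 CPM in the pregranulosa-like cells of E14.5, where a count of 0 would have allowed up to 1.91 CPM. The main comparisons between stages left these cells out, and the alternative with all cells held them. In the germ-cell-like cells of the same library Rara was at 16.0 CPM. Y-linked UMIs were found in 14.2% of E12.5 germ-cell-like cells (13.2 to 15.3%), although the cells are labelled female, and in 91.5% of the 633 cells of cluster 2 of that library. At E14.5, 0 of 8905 cells held one, and a share of 0.0337% or less could have been missed. At E16.5, 0 of 5312 cells did, with a limit of 0.0565%.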

How the results depend on the processing

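The ratios were recomputed under 9 alternatives, and no ratio whose interval lay on 1 side of 1 turned to the other side. In the order median-of-ratios factors, TMM factors and undone means of the deposited natural logs, E14.5 over E12.5 was 1.34, 1.39 and 1.35 for Rara, 0.549, 0.572 and 0.546 for Rarg, 1.45, 1.51 and 1.44 for Rxra and 0.790, 0.823 and 0.846 for Rxrb. E16.5 over E12.5 was 0.299, 0.301 and 0.318 for Rara, 1.00, 1.01 and 1.10 for Rxra and 1.08, 1.09 and 1.24 for Rxrb. For Rarg it was 0.119 and 0.120 with the first 2 of these. Rxrb at E16.5 over E14.5 was 1.32 with TMM factors. In cells thinned to 5000 UMIs, E14.5 over E12.5 was 1.56 for Rara and 0.584 for Rarg. At 1.5-fold, 2 receptors were higher at E14.5 than at E12.5, and the share of all genes at this fold is not given here. At Leiden resolution 1 the highest over the lowest E14.5 cluster was 5.20 for Rara, and for Rarg it was 13.1 (5.48 to 41.0), against 6.14 at resolution 0.5. Rarg was then highest in a cluster led by Sp5, Synpr and Rec8, at 9.54 CPM (7.98 to 11.3). The cluster led by Cdh15 and Cdx2 stood at 9.32 CPM (8.27 to 10.5), and the intervals overlapped. Among E16.5 clusters the highest over the lowest was 4.28 for Rara at resolution 1 (2.74 to 6.69), against 5.56 at resolution 0.5. At 3-fold, where the share of all genes is likewise not given, 2 receptors were lower at E16.5 than at E12.5, since Rara was 2.58-fold lower. The cause was not tested. The other recomputed ratios between stages moved by less than counting error, among them the ratios without Y-linked cells and, chosen after the data were seen, without clusters under 300 cells. Of the list counts and thinned shares, 25 moved and 206 did not.

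No paired analysis was possible because each stage was 1 library. Receptors of few UMIs, above all Rarb, are limited by depth: the 8 UMIs of E16.5 set its ratio to E14.5 at between 3.55 and 17.5-fold lower. The part of doublets and free RNA was not tested.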
